A study of Mus musculus with 23 samples.

Results

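Mast cell gene expression was followed through 10 commonly used marker genes in 23 RNA sequencing libraries of sorted cells from the mouse incisor. They were the tryptases Tpsb2 and Tpsab1, the chymases Cma1 and Mcpt4, the carboxypeptidase Cpa3, the receptor Kit, the IgE receptor chains Fcer1a and Ms4a2, the histamine-forming enzyme Hdc and the transcription factor Gata2. All 10 were found by symbol among the 54347 genes of the deposited count table. The members were chosen by their measured levels in these same libraries, with results across the 4 groups already known, so their levels are given as a description, without a test.

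The libraries came from the labial cervical loop of the lower incisor of mice at postnatal day 2, an epithelial pocket at the growing end of the tooth, together with the tissue around it. All mice carried the Sox2-GFP reporter, in which the endogenous Sox2 promoter drives green fluorescent protein. After digestion with collagenase and neutral protease, cells were sorted into Sox2-positive cells, called dental epithelial stem cells in the labels, and Sox2-negative cells, the other cells of the dissected piece. Batch A gave 6 Sox2-negative and 6 Sox2-positive libraries and batch B gave 4 and 7, each batch being a separate day's experiment on its own mice. No label says whether libraries of the same batch and population are separate mice or split portions of a single suspension, so every SD and p-value measures the spread between these libraries, which may be technical. The strain, the sex and the number of mice were not given in the sources used here.

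Total estimated counts ran from 2305778 to 9541443 per library, so that 3 counts stood for 0.314 to 1.30 CPM (counts after scaling every library to the same size). This floor, like the count intervals below, covers counting error only, since the reads carry no molecular identifiers and may repeat a molecule. Sox2 ran from 2.54 to 20.3 CPM in the 13 Sox2-positive libraries and from 0 to 1.18 CPM in the 10 Sox2-negative ones. Batch B libraries 1 and 2 resembled each other (Pearson's r of log2 CPM across genes 0.948 in Sox2-negative and 0.979 in Sox2-positive cells) more than the other batch B libraries resembled one another. For the other 2 Sox2-negative libraries this was a single r of 0.902, and for the other 5 Sox2-positive ones a median of 0.958. Between libraries 1 and 2 and the others the median r was 0.915 and 0.961. Results that rest on libraries 1 and 2 are also given without them. Genes are not independent replicates, so these values describe the libraries only.

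Mast cells are tissue-resident cells of the blood lineage that sit in connective tissue, often near vessels. Their granules store proteases bound to proteoglycan together with histamine, and they release these when antigen cross-links IgE on the high-affinity IgE receptor. That receptor is built from an IgE-binding alpha chain (Fcer1a), a signal-amplifying beta chain (Ms4a2) and a signalling gamma chain (Fcer1g) that several other white blood cells share. Growth and survival of mast cells depend on stem cell factor (Kitl) acting through Kit. Mouse mast cells of connective tissue are known for the tryptases, Cma1, Mcpt4 and Cpa3, and mucosal mast cells for Mcpt1 and Mcpt2.

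The tryptases are neighbouring genes on mouse chromosome 17 and are similar enough that reads could in principle be shared between them. On the build GRCm38 with the GENCODE M21 annotation, Tpsb2 (ENSMUSG00000033825.10) lies at chr17:25366305-25369098 on the plus strand and Tpsab1 (ENSMUSG00000024173.11) at chr17:25343245-25345562 on the minus strand. Their coding sequences were 75.0% identical over 831 aligned bases. Only 9 of the 1617 distinct stretches of 31 bases in Tpsb2 transcripts also occur in another gene, and all 9 were shared with Tpsab1. The 90 coding bases below are shown because the pair behaved differently across the batches; capitals mark the 28 positions at which the sequences differ.
Tpsb2, coding bases 12 to 101: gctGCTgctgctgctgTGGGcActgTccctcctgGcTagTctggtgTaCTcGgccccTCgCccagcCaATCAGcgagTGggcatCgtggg
Tpsab1, coding bases 114 to 203: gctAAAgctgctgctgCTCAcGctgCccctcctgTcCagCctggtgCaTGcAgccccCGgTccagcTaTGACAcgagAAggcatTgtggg
GENCODE M21 lists Tpsab1 as a protein-coding gene, and RefSeq lists it as a transcribed pseudogene on the same assembly, which is of the C57BL/6J strain.

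The other protease genes lie on chromosome 14, where Cma1 (ENSMUSG00000022225.7) is at chr14:55941451-55944675 and Mcpt4 (ENSMUSG00000061068.7) at chr14:56059629-56062313, and on chromosome 3, where Cpa3 (ENSMUSG00000001865.2) is at chr3:20215620-20242181, all on the minus strand. Cma1 and Mcpt4 were 64.6% identical in coding sequence. Of their 31-base stretches, 10.6% in Cma1 and 12.2% in Mcpt4 also occur in other genes, chiefly Gm48934 for Cma1 and Cma2 for Mcpt4, so part of their counts is less certain. Cpa3 had no such shared stretch.

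The 250 bases before the RefSeq start site (build GRCm38.p6) are printed for 3 proteases whose levels moved together between the batches and for the IgE receptor chains, of which Fcer1a was at 0 throughout and Ms4a2 was detected in few libraries. Each is written 5′ to 3′ in the direction of its gene, and capitals mark matches, on either strand, to the GATA letters AGATAA or TGATAA and to the E-box letters CATGTG or CACGTG, which are typical of sites bound by GATA2 and by MITF. No capitals in a window means no match.
Cma1, chr14:55944676-55944925, minus strand: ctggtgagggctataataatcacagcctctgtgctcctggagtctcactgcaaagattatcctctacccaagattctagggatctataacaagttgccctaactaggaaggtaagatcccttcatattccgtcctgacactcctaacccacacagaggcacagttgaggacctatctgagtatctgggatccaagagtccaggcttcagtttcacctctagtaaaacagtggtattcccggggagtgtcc
Mcpt4, chr14:56062311-56062560, minus strand: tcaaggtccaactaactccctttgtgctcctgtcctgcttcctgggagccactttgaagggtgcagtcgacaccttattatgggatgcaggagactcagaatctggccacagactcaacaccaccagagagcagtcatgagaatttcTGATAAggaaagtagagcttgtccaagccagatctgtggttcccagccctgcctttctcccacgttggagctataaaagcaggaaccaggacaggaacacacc
Cpa3, chr3:20242182-20242431, minus strand: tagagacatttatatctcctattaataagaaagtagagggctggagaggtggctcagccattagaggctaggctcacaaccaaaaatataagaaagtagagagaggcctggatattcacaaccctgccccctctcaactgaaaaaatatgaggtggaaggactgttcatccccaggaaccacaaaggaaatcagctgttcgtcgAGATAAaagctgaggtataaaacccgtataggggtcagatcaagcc
Fcer1a, chr1:173227230-173227479, minus strand: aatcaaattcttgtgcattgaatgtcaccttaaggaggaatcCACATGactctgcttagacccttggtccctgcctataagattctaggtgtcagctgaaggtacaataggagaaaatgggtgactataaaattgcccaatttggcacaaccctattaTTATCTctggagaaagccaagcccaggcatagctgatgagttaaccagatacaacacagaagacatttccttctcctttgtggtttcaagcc
Ms4a2, chr19:11623720-11623969, minus strand: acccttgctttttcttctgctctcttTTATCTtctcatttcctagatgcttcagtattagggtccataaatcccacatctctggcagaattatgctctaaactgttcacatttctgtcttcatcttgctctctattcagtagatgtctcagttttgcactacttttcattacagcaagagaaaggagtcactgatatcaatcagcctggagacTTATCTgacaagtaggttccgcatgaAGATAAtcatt
GATA letters occurred in the windows of 4 of the 8 genes that had a RefSeq entry (Mcpt4, Cpa3, Fcer1a and Ms4a2), and in 16.6% of all 32851 windows of that length. E-box letters occurred in 1 of the 8 (Fcer1a), without overlapping its GATA letters, and in 17.6% of all windows. Tpsb2 and Tpsab1 had no entry. A match is a description of letters and does not show that a factor binds.

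The granule proteases were abundant in batch A Sox2-negative libraries and absent or nearly absent from Sox2-positive libraries. Tpsb2, the main connective tissue tryptase, measured 447, 463, 423, 558, 517 and 435 CPM in batch A Sox2-negative libraries 1 to 6, with a mean of 473.9 ± 52.5 CPM (SD, n = 6). In batch A Sox2-positive libraries it had 1 count in 1 library and 0 in the other 5. The summed counts of the groups gave a ratio of 14710 with a 95% interval of 2640 to 581054, an interval for counting error alone. In batch B, Tpsb2 measured 5.33, 11.8, 8.78 and 3.22 CPM in the Sox2-negative libraries (mean 7.28 ± 3.79, n = 4) and 0 in all 7 Sox2-positive libraries, at least 10.1-fold lower when set against 3 counts per library. The Sox2-negative libraries of both batches lay above every Sox2-positive library, and those of batch A lay above those of batch B by 65.1-fold in their means.

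Cma1, a chymase that also has elastase-like activity in the mouse, followed the same pattern at about the same scale. Batch A Sox2-negative libraries measured 234, 251, 366, 192, 251 and 207 CPM (mean 249.99 ± 61.6, n = 6), with library 3 above the rest. Batch B Sox2-negative libraries measured 10.5, 14.9, 11.2 and 2.71 CPM (mean 9.85 ± 5.14, n = 4), a 25.4-fold lower mean with no overlap. Cma1 was 0 in all 6 batch A Sox2-positive libraries, at least 422-fold lower, and in batch B 2 of the 7 Sox2-positive libraries had 2 counts each.

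Mcpt4, the connective tissue chymase, measured 103, 81.2, 83.7, 141, 89.7 and 84.5 CPM in batch A Sox2-negative libraries (mean 97.2 ± 22.96, n = 6). In batch B the Sox2-negative libraries measured 1.78, 3.29, 0 and 6.10 CPM (mean 2.79 ± 2.58, n = 4). All 13 Sox2-positive libraries were at 0, which made Mcpt4 at least 164-fold higher in Sox2-negative cells in batch A and at least 3.89-fold higher in batch B. Batch B Sox2-negative library 3 was itself at 0, so the populations overlapped there.

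Cpa3, which trims peptides within the granule, had the widest gap between batches of any member with more than 1 count in batch B Sox2-negative libraries. It measured 78.7, 92.3, 50.6, 109, 65.2 and 55.1 CPM in batch A Sox2-negative libraries (mean 75.1 ± 22.5, n = 6). In batch B the values were 0.36, 1.34, 1.79 and 0 CPM (mean 0.872 ± 0.835, n = 4), 86.1-fold lower. No Sox2-positive library had a Cpa3 count, which places Cpa3 at least 127-fold higher in Sox2-negative cells in batch A and at least 1.22-fold higher in batch B, where most libraries were near the floor.

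Tpsab1 did not follow the other proteases between batches. In batch A Sox2-negative libraries 1 to 6 it measured 45.0, 5.53, 6.04, 46.6, 12.8 and 37.2 CPM (mean 25.5 ± 19.5, n = 6). The batch B values were 11.6, 11.7, 5.53 and 11.9 CPM (mean 10.2 ± 3.09, n = 4), so the batches overlapped and the means differed by 2.51-fold. Libraries 1, 4 and 6 of batch A lay at 37.2 CPM or above and the other 3 at 12.8 CPM or below, and of those rich in Tpsab1 only library 4 was also among the 3 highest for Tpsb2. Tpsb2 made up 95.0% ± 3.66 of the combined tryptase CPM in batch A Sox2-negative libraries (90.9 to 98.8%) and 41.1% ± 18.1 in batch B (21.3 to 61.4%), ranges that do not overlap. Tpsab1 was 0 in all 13 Sox2-positive libraries, at least 43.1-fold lower in batch A and at least 14.2-fold lower in batch B.

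**Figure D1:**
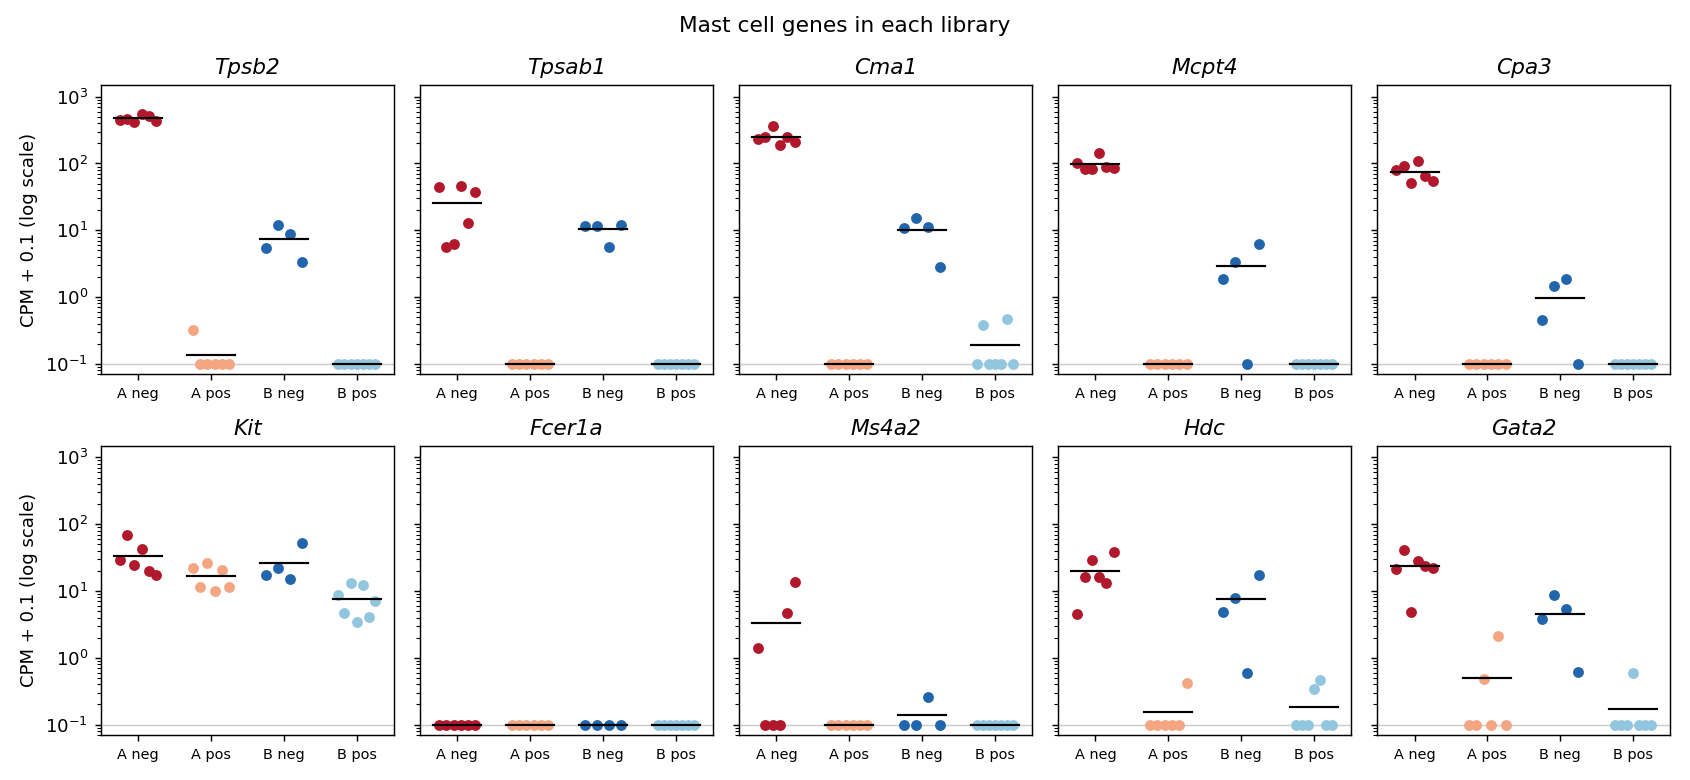
CPM of the 10 genes in each library (a log axis after adding 0.1), with libraries in the 4 groups along the horizontal axis, 1 point per library and a black bar at the group mean. Tpsb2, Cma1, Mcpt4 and Cpa3 sit highest in batch A Sox2-negative libraries with no overlap with batch B, whereas Kit has values in all 4 groups and Fcer1a is at 0 throughout.

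Of the high-affinity IgE receptor, the alpha chain that binds IgE was not detected. Fcer1a (ENSMUSG00000005339.10, chr1:173221284-173227214) had 0 counts in all 23 libraries, which allows at most 0.0254 CPM over the 118336038 counts of the series. That total includes the Sox2-positive libraries, and in single batch A Sox2-negative libraries 3 counts stood for 0.621 to 0.808 CPM. Ms4a2 (ENSMUSG00000024680.12, chr19:11615523-11623719), the beta chain, had 5, 22 and 51 counts in batch A Sox2-negative libraries 1, 5 and 6, or 1.29, 4.598 and 13.6 CPM, and 0 in libraries 2, 3 and 4. It had 1 count in 1 batch B Sox2-negative library and 0 in every Sox2-positive library. The batch A libraries without Ms4a2 held Tpsb2 at 423 to 558 CPM, and those with it at 435 to 517 CPM. Of the summed Ms4a2 counts, the ratio of batch A to batch B Sox2-negative cells was 85.7 with a 95% interval of 14.9 to 3426. The ratio of mean CPM was 80.1, and it was 29.0 without batch A library 6 and 40.05 without batch B libraries 1 and 2; without batch B library 3 no count was left in batch B.

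Hdc and Gata2 were restricted in the same way by population, at lower levels. Hdc (ENSMUSG00000027360.5, chr2:126593667-126619299), which makes histamine from histidine, measured 4.37, 16.2, 29.4, 16.1, 12.96 and 38.0 CPM in batch A Sox2-negative libraries (mean 19.5 ± 12.1, n = 6), against 4.74, 7.62, 0.488 and 17.3 CPM in batch B (mean 7.53 ± 7.13, n = 4). Over all 13 Sox2-positive libraries, it had 2 counts in 1 batch A library and 1 count in each of 2 batch B libraries. Summed-count ratios of Sox2-negative to Sox2-positive cells were 294 (95% interval 81.0 to 2437) in batch A and 124 (33.8 to 1029) in batch B. The batches overlapped, with means 2.59-fold apart.

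Gata2 (ENSMUSG00000015053.14, chr6:88193891-88207032), a factor needed to form mast cells and other blood cells and also made by endothelial cells, measured 21.1, 40.6, 4.72, 28.4, 23.8 and 21.7 CPM in batch A Sox2-negative libraries (mean 23.4 ± 11.7, n = 6). In batch B it measured 3.67, 8.52, 5.20 and 0.508 CPM (mean 4.47 ± 3.33, n = 4). Library 3 of batch A overlapped batch B, and the means stood 5.23-fold apart. Gata2 was found in 2 batch A Sox2-positive libraries, at 0.38 and 2.01 CPM, and the batch A populations differed by 58.9-fold in their means. In batch B the summed-count ratio was 77.7 (95% interval 21.0 to 649).

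Kit was the member that both populations carried in quantity. Kit (ENSMUSG00000005672.12, chr5:75574916-75656722), the receptor tyrosine kinase for stem cell factor, measured 29.3, 69.3, 24.1, 42.7, 20.1 and 17.1 CPM in batch A Sox2-negative libraries (mean 33.8 ± 19.6, n = 6). The batch A Sox2-positive libraries measured between 9.94 and 26.3 CPM with a mean of 16.9 ± 6.81 (n = 6), a 2.00-fold difference with overlap. In batch B, Sox2-negative libraries measured 17.2, 21.8, 14.8 and 52.0 CPM (mean 26.4 ± 17.3, n = 4) and Sox2-positive libraries between 3.39 and 13.2 CPM (mean 7.55 ± 3.93, n = 7), a 3.50-fold difference without overlap. Between batches the Kit means differed by 1.28-fold in Sox2-negative cells and by 2.24-fold in Sox2-positive cells, with overlap in both.

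Kit also marks melanocytes, and 6 melanocyte markers were followed, of which Tyrp1, Pmel and Mlana were near or at 0 in most libraries. Dct, a melanin enzyme, averaged 39.8 CPM in Sox2-negative and 35.9 CPM in Sox2-positive libraries of batch A, and 77.1 and 53.2 CPM in those of batch B. Tyr, which catalyses the first step of melanin synthesis, averaged 17.9, 5.52, 17.7 and 7.51 CPM in the same order. Sox10, a factor of melanocytes and other neural crest cells, went the other way, at 0.16 and 197.9 CPM in batch A and 0 and 8.36 CPM in batch B. In edgeR's test Tyr was lower and Sox10 higher in Sox2-positive cells in both batches, and Dct passed in neither. The 6 markers together averaged 59.0 and 240.8 CPM in Sox2-negative and Sox2-positive libraries of batch A and 95.96 and 70.4 CPM in those of batch B, Mlana being at 0 in all libraries, and their part in the Kit level was not tested.

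Counting all 10 members, 7 were lower in every batch A Sox2-positive library than in any batch A Sox2-negative one, with 15.6% of the 14296 genes tested doing the same; none was higher in that way, with 12.5% of all genes. In batch B there were 6 such members beside 20.6% of 15765 genes, and none the other way beside 17.5%. These shares concern the contrasts from which the list was chosen, and nothing is read from them. Here and between the batches below, members are counted over all 10, whereas the shares are over genes that passed the filter on low counts. The filter on low counts passed 8 members in batch A and in the model of all groups (not Fcer1a and Ms4a2), and 4 in batch B (Tpsb2, Tpsab1, Cma1 and Kit).

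Levels were compared between genes after division by the length of the gene's exons. In batch A Sox2-negative libraries, Tpsb2 led with 297 ± 32.96 CPM per kb (n = 6), followed by Cma1 with 229 ± 56.5, Mcpt4 with 87.7 ± 20.7, Cpa3 with 49.5 ± 14.8 and Tpsab1 with 12.2 ± 9.31 CPM per kb. The libraries of Tpsb2 (266 to 350) and Cma1 (176 to 336) overlapped, and each later neighbour down to Tpsab1 did not overlap the one before it. Gata2, Kit, Hdc and Ms4a2 followed with means of 4.33, 3.79, 3.05 and 1.16 CPM per kb and overlapping ranges, and Fcer1a was at 0. In batch B Sox2-negative libraries the mean levels were 9.04 CPM per kb for Cma1, 4.85 for Tpsab1, 4.57 for Tpsb2, 2.97 for Kit, 2.52 for Mcpt4, 1.18 for Hdc, 0.829 for Gata2, 0.575 for Cpa3 and 0.0144 for Ms4a2. With the longest transcript in place of all exons, Tpsb2 and Tpsab1 changed places in batch B, at 5.65 and 5.27 CPM per kb. In this order Cpa3 had rank 4 in batch A and rank 8 in batch B.

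**Figure D2:**
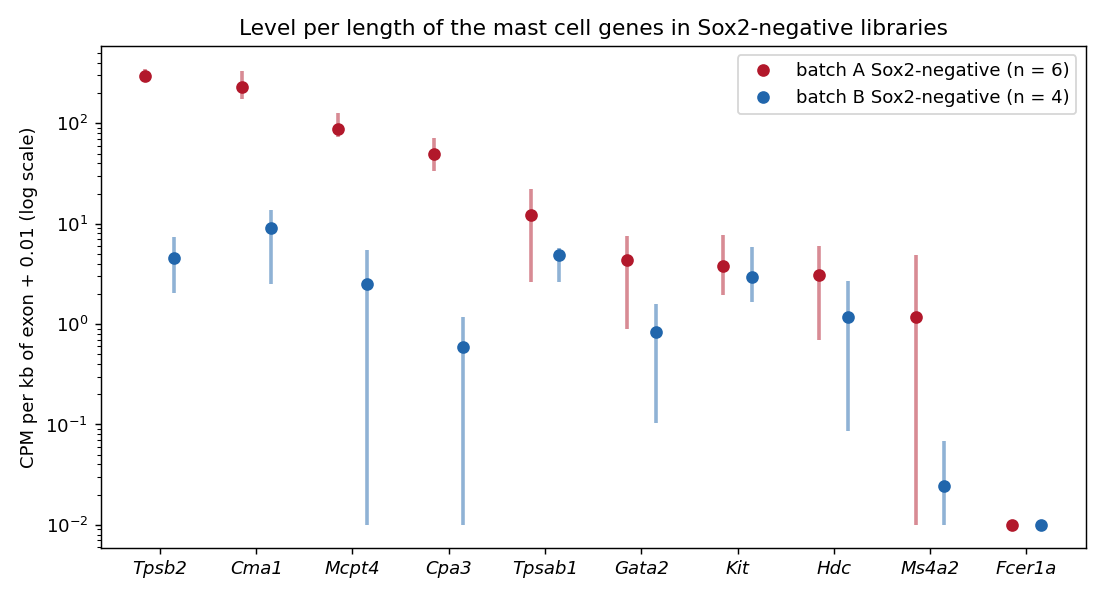
CPM per kb of exon for each member in Sox2-negative libraries, on a log axis after adding 0.01, with dots at the mean and lines from the lowest to the highest library in batch A (n = 6) and batch B (n = 4). Tpsb2 and Cma1 lead in batch A at 297 and 229 CPM per kb, and in batch B Cma1 is first at 9.04 CPM per kb and Ms4a2 lowest of the detected members at 0.0144.

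The 10 members together summed to 1002 ± 74.7 CPM (909 to 1133) in batch A Sox2-negative libraries and to 69.4 ± 21.5 CPM (47.9 to 93.7) in batch B. Sox2-positive libraries summed to 9.94 to 26.6 CPM in batch A and to 4.11 to 13.2 CPM in batch B. In bulk libraries of sorted cells, fewer mast cells and less RNA of these genes per cell cannot be told apart. Of the 10 members, 4 (Tpsb2, Cma1, Mcpt4 and Cpa3) were lower in every batch B Sox2-negative library than in any batch A one, against 4.3% of the 17190 genes tested, and none was higher, against 4.57%. In Sox2-positive libraries all members except Kit had libraries at 0 in both batches, so only Kit could have been counted. Kit overlapped, beside 4.64% of all genes lower and 3.9% higher without overlap. With 1 library left out at a time, the batch A to batch B ratio of means in Sox2-negative cells ran from 54.9 to 82.1 for Tpsb2, 20.4 to 30.7 for Cma1, 26.1 to 57.6 for Mcpt4 and 64.6 to 132.5 for Cpa3. Without batch B libraries 1 and 2 these ratios were 79.0, 35.9, 31.9 and 84.0. The ratio ran from 2.10 to 2.90 for Tpsab1, 1.01 to 1.88 for Kit, 1.97 to 4.56 for Hdc and 4.03 to 7.48 for Gata2 with 1 library left out. Without batch B libraries 1 and 2 it was 2.94 for Tpsab1, 1.01 for Kit, 2.20 for Hdc and 8.19 for Gata2.

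Other cell types of the Sox2-negative gate moved between the batches beside the mast cell genes. In batch A Sox2-negative libraries, 8 neutrophil markers summed to 3996 to 4676 CPM, and in batch B to 963 to 1150 CPM. The 8 macrophage markers summed to 897 to 972 and to 155 to 213 CPM, and 8 endothelial markers to 772 to 1094 and to 216 to 279 CPM. By contrast, 8 mesenchymal markers summed to 11799 to 13158 and to 10557 to 13612 CPM, and 9 erythroid and megakaryocyte markers to 700 to 866 and to 35040 to 38295 CPM. In Sox2-positive libraries the neutrophil sum was at most 3.58 CPM, the macrophage sum at most 14.4 CPM and the endothelial sum at most 9.43 CPM. All markers of the neutrophil, macrophage, endothelial and mesenchymal lists had counts in both Sox2-negative groups. The part of these cell types in the mast cell values was not tested.

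Relative to 5 genes that white blood cells share (Ptprc, Cd52, Laptm5, Coro1a and Tyrobp), the 5 proteases stood at 1.81 ± 0.388 (1.25 to 2.42) in batch A Sox2-negative libraries and at 0.177 ± 0.0433 (0.126 to 0.226) in batch B, ranges that do not overlap. The neutrophil list relative to the same genes stood at 8.71 ± 1.42 and 6.33 ± 0.903. Within the neutrophil list, levels of genes differed in how they compared between the batches. Camp, of the specific granules, averaged 731 and 40.9 CPM in batches A and B and Ngp 812 and 41.2. Mmp9, of the gelatinase granules, averaged 473 and 528 CPM and Retnlg 49.8 and 53.2. S100a8 averaged 1378 and 234 CPM and S100a9 897 and 177 CPM. In edgeR's test Ly6g was lower in batch B by log2 -5.31 (SE 1.09, adjusted p 0.00485) and Ltf by log2 -2.40 (SE 0.32, adjusted p 0.000123).

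**Figure D3:**
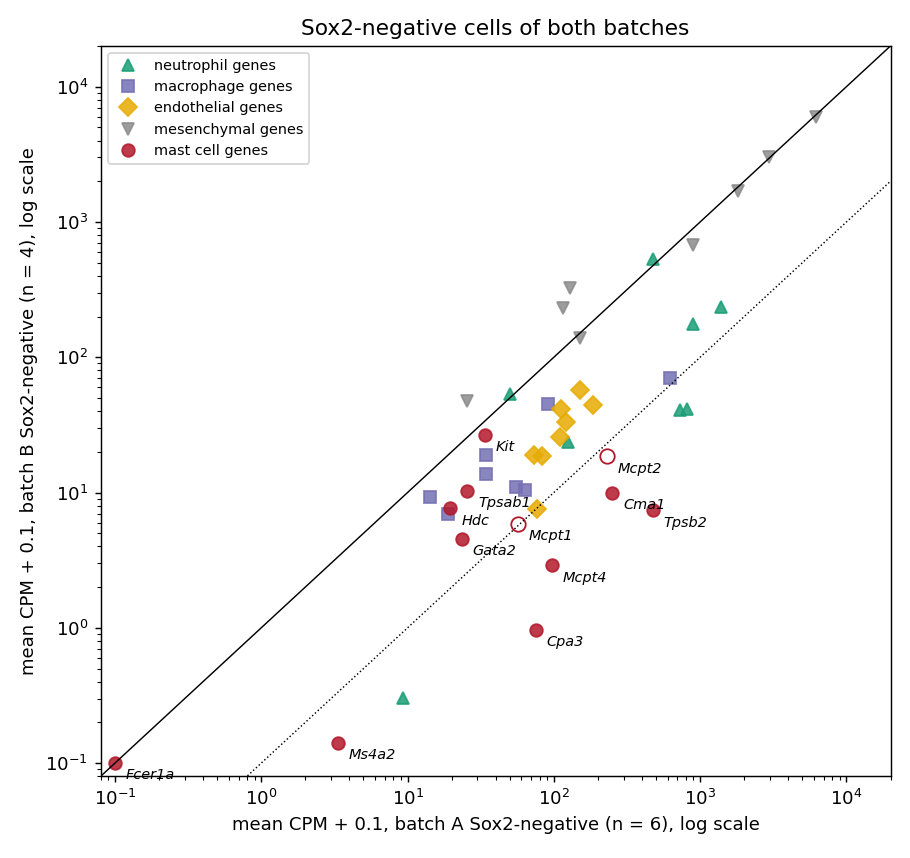
Mean CPM of mast cell, neutrophil, macrophage, endothelial and mesenchymal genes in batch A (horizontal) and batch B (vertical) Sox2-negative libraries, on log axes after adding 0.1, with a solid line of equal means and a dotted line at 10-fold lower in batch B. Tpsb2, Cma1, Mcpt4, Cpa3 and Ms4a2 lie below the dotted line, as does Mcpt2, and so do Camp, Ngp and Ly6g among the neutrophil genes. Kit lies near the solid line.

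Basophils share several of these genes and were followed through 5 markers. Mcpt8, a basophil protease, averaged 3.15 ± 3.53 CPM in batch A Sox2-negative libraries (n = 6) and 0.46 ± 0.53 CPM in batch B (n = 4). Prss34, another one, averaged 7.96 ± 8.21 CPM in batch A and was 0 in all batch B Sox2-negative libraries. Itga2, an integrin chain that other cells also make, averaged 16.5 and 10.1 CPM in Sox2-negative libraries of batches A and B and 13.2 and 39.6 CPM in Sox2-positive ones, where it made up most of the basophil sum and was higher in batch B (log2 1.59, SE 0.36, edgeR adjusted p 0.00322). The 5 markers summed to 33.6 to 148 CPM in batch A Sox2-negative libraries and 6.18 to 24.95 CPM in batch B, with 8.39 to 20.3 and 28.0 to 63.4 CPM in the Sox2-positive libraries of the same batches, and their part in the Ms4a2, Hdc, Kit and Gata2 levels was not tested.

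**Figure D4:**
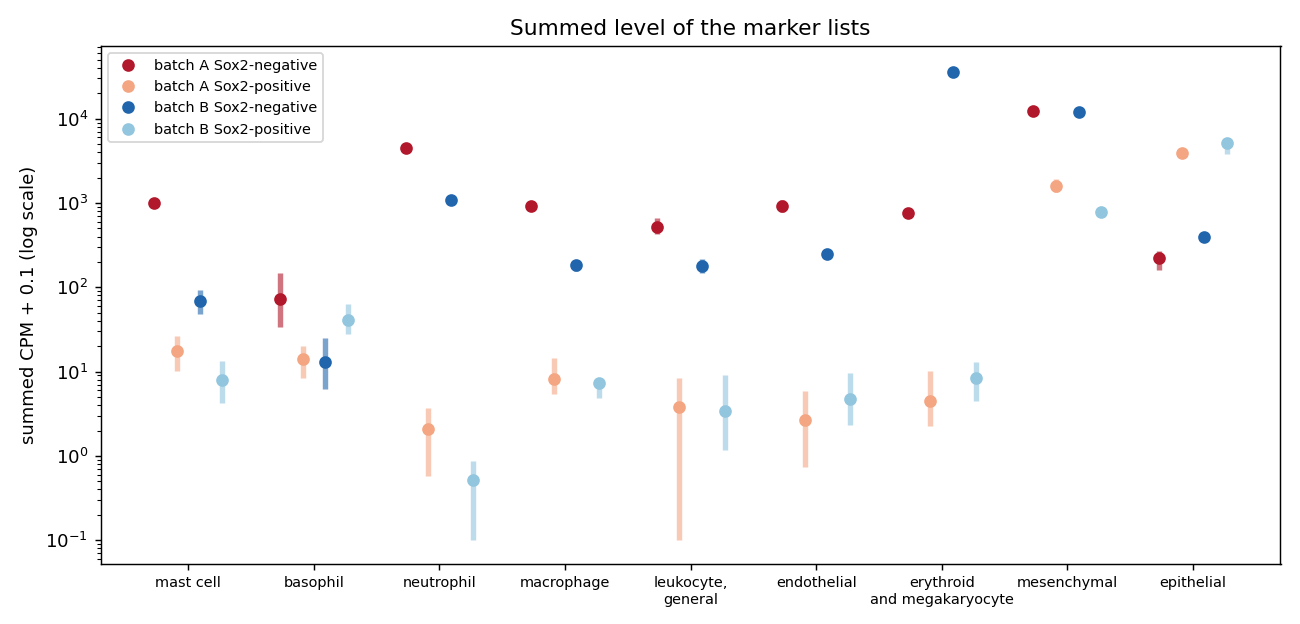
Summed CPM of each marker list in the 4 groups, on a log axis after adding 0.1, with dots at the mean and lines from the lowest to the highest library. The neutrophil, macrophage, endothelial and mast cell sums are lower in batch B than in batch A Sox2-negative libraries, the erythroid sum is higher, and the mesenchymal sums overlap.

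Beyond the members, 59 genes were grouped into 6 lists of mast cell biology: other proteases and granule genes, other surface receptors, IgE receptor signalling, mediator synthesis, other transcription factors, and growth and activation ligands. They were tested with edgeR's quasi-likelihood test and called at a Benjamini-Hochberg adjusted p under 0.05 over all genes tested. In batch A, 40 of the 59 passed the filter on low counts, of which 30 were lower in Sox2-positive cells and 1 was higher, and the median log2 fold change was -3.12. Over all 14296 genes tested, 24.2% were lower and 19.3% higher, with a median of -0.04. In batch B, 34 passed the filter, of which 21 were lower and 1 was higher, with a median of -2.02, beside 27.6% lower, 27.1% higher and a median of 0.01 over all genes. A gene of low level can pass this filter only where 1 group is high, and the lists were drawn up with earlier results of these libraries known, so these counts and medians describe the genes that passed and are not independent evidence of their direction. The same limit and the same shares over all genes apply to the counts of each list between populations below.

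Among the other granule genes, 6 of 7 tested were lower in Sox2-positive cells in batch A and 4 of 6 in batch B. Mcpt2, a chymase of mucosal mast cells, averaged 229.7 ± 52.6 CPM (n = 6) in batch A Sox2-negative libraries against 18.4 ± 8.09 CPM (n = 4) in batch B, and was 0 in all Sox2-positive libraries, where it was at least 388-fold lower in batch A and at least 25.7-fold lower in batch B. Mcpt1, its neighbour and relative, averaged 56.7 ± 29.5 and 5.77 ± 1.84 CPM and was also 0 in Sox2-positive libraries, at least 95.9-fold lower in batch A and at least 8.04-fold lower in batch B. Mcpt1 and Mcpt2 belong to the same chymase family as Mcpt4, and reads that their transcripts share could be split by the authors' quantification. Between batches in Sox2-negative cells, Mcpt2 fell by 3.63 on the log2 scale (SE 0.33, adjusted p 2.46e-06) and Mcpt1 by 3.30 (SE 0.51, adjusted p 0.000527) in edgeR's test, and all 4 batch B libraries lay below all 6 of batch A for each gene. Srgn, the core protein of the granule proteoglycan, averaged 104 and 28.9 CPM (log2 -1.85, SE 0.30, edgeR adjusted p 0.000308). Cd63, a granule membrane protein that most cells make, averaged 893 and 690 CPM (log2 -0.37, SE 0.11, edgeR adjusted p 0.0330).

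Of the other surface receptors, 6 of 7 tested were lower in Sox2-positive cells in batch A and 4 of 6 in batch B. Fcer1g, the gamma chain that the IgE receptor shares with receptors of other white blood cells, averaged 175 ± 15.2 CPM in Sox2-negative libraries of batch A (n = 6) and 35.4 ± 5.92 CPM in those of batch B (n = 4). Fcer1g was lower in Sox2-positive cells by log2 -9.26 (SE 0.39) in batch A and -7.65 (SE 0.47) in batch B. These SE are worked back from the F statistic and can be too small where Sox2-positive counts are near 0. Between batches Fcer1g was lower in batch B Sox2-negative cells by log2 -2.31 (SE 0.30, edgeR adjusted p 6.86e-06). Cd200r3, an activating receptor of mast cells and basophils, averaged 43.4 ± 32.2 and 2.27 ± 0.51 CPM (log2 -4.25, SE 0.64, edgeR adjusted p 5.36e-05), with all batch B libraries at or below 2.99 CPM and all batch A libraries at or above 7.11. Csf2rb, the signalling chain of the IL-3 and GM-CSF receptors, averaged 64.4 and 16.5 CPM (log2 -1.97, SE 0.47, edgeR adjusted p 0.00634). The gamma chain was thus abundant in the Sox2-negative cells in which the alpha chain was at 0 and the beta chain was sparse.

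Signalling genes downstream of the receptor were lower in Sox2-positive cells for 7 of 8 tested in batch A and 5 of 7 in batch B. Lyn, the kinase that phosphorylates the receptor first, averaged 49.1 and 11.8 CPM in the Sox2-negative libraries of the batches (log2 -2.05, SE 0.63, edgeR adjusted p 0.0332). Inpp5d, the lipid phosphatase SHIP that dampens the signal, averaged 35.2 and 8.76 CPM (log2 -2.005, SE 0.54, edgeR adjusted p 0.0183). Fyn, a kinase found in many cell types, averaged 84.97 and 64.8 CPM in Sox2-negative cells and passed the edgeR test between populations in neither batch (adjusted p 0.697 and 0.907).

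Among the mediator genes, 5 of 7 tested were lower in Sox2-positive cells in batch A and 3 of 5 in batch B. Alox5ap, which presents arachidonic acid to the enzyme that starts leukotriene synthesis, averaged 65.1 and 30.1 CPM in the Sox2-negative libraries of the batches (log2 -1.11, SE 0.34, edgeR adjusted p 0.0345). Hpgds, the enzyme for prostaglandin D2 in blood-lineage cells, averaged 26.2 and 10.4 CPM (edgeR adjusted p 0.325), and Ptgs1 averaged 21.8 and 20.6 CPM (edgeR adjusted p 0.953).

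Transcription factors were called in both directions. In batch A, 4 of 8 tested were lower in Sox2-positive cells and 1 was higher, beside 24.2% and 19.3% of all genes. In batch B 3 of 7 were lower and 1 was higher, beside 27.6% and 27.1%, so nothing is read from these counts. Spi1, a factor of myeloid cells including mast cells, averaged 39.2 and 12.2 CPM in batch A and batch B Sox2-negative libraries (log2 -1.68, SE 0.45, edgeR adjusted p 0.0227). Lyl1 averaged 29.0 and 7.93 CPM (edgeR adjusted p 0.205). Runx1 was the gene of the lists that was higher in Sox2-positive cells in both batches: it averaged 133 against 33.1 CPM in batch A (log2 2.01, SE 0.34, edgeR adjusted p 0.000174) and 240 against 38.6 CPM in batch B (log2 2.70, SE 0.16, edgeR adjusted p 8.8e-10), with no overlap between the populations in either batch. It is known from both blood and dental epithelium.

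Between the batches in Sox2-negative cells, 13 of 47 listed genes tested were lower in batch B and 0 were higher, with a median log2 fold change of -1.15, beside 5.35% lower, 5.85% higher and a median of -0.00 over all 17190 genes tested by edgeR. DESeq2 called 16 lower and 0 higher, and 0 were higher at an unadjusted p under 0.05. The 13 were 5 granule genes, 4 receptors, 2 signalling genes, 1 mediator gene and 1 transcription factor. Here too a gene of low level can pass the filter only where 1 group is high, and the lists were drawn up with earlier results known. These counts and medians therefore describe the genes that passed and are not independent evidence of their direction. Of the marker lists, 6 of 8 neutrophil, 3 of 8 macrophage, 8 of 8 endothelial and 4 of 5 general leukocyte genes tested were lower, with median log2 fold changes of -2.48, -1.39, -2.02 and -1.59. Batch stands for the day and the mice together, which cannot be told apart.

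Of the 11 named genes called here, Mcpt1, Mcpt2, Srgn, Fcer1g, Cd200r3, Lyn, Inpp5d, Alox5ap and Spi1 were lower in every batch B Sox2-negative library than in any batch A one, and Cd63 and Csf2rb overlapped. Over all 17190 genes tested, 4.3% were lower without overlap. The 11 genes were taken because they were called lower in these same libraries, so nothing further is read from this. Mcpt1, Mcpt2, Srgn, Fcer1g, Cd200r3 and Csf2rb kept their call whichever single library was left out. The call of Cd63 was lost without batch A library 5 or 6 or batch B library 1, 2 or 4, that of Inpp5d without batch B library 1, 2 or 4, and that of Spi1 without batch B library 1, 2 or 3. Lyn lost it without batch A library 2, 4 or 5 or batch B library 1, 3 or 4, and Alox5ap without batch A library 1, 5 or 6 or any 1 batch B library. Over all 6 lists the count of lower genes was 6 without batch B libraries 1 and 2, when Csf2rb also lost its call, and 8 without either of batch B Sox2-negative libraries 1 and 2 alone. In Sox2-positive cells, 3 of the 47 listed genes were lower in batch B (Cd63, Cxcl12 and Vav1) and 1 was higher (Runx1), beside 5.54% and 4.85% of all genes. The Runx1 call was lost without Sox2-positive library 5 or 6 of batch A or 1 or 2 of batch B.

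Among the ligands, 2 of 3 tested were lower in Sox2-positive cells in each batch, Kitl and Cxcl12. Kitl, which encodes stem cell factor, averaged 26.7 ± 15.5 CPM (n = 6) in Sox2-negative and 3.58 ± 2.45 CPM (n = 6) in Sox2-positive libraries of batch A, with no overlap, and 20.7 ± 5.96 (n = 4) and 2.39 ± 1.27 CPM (n = 7) in batch B, with no overlap. In edgeR's test the log2 differences were -2.88 (SE 0.64, adjusted p 0.00171) and -3.01 (SE 0.42, adjusted p 1.81e-05). Between batches, Kitl in Sox2-negative cells did not pass (log2 -0.36, SE 0.57, edgeR adjusted p 0.754). On simulated data this comparison recovered 21.2% of changes of log2 1 and 46.8% of changes of log2 2, so such a change could be missed. The 5 proteases differed by 2.51-fold (Tpsab1) to 86.1-fold (Cpa3) in their means in the same libraries, and the part of Kitl in this was not tested. Cxcl12, a chemokine that draws in mast cell progenitors and other cells, averaged 186 CPM in Sox2-negative and 24.1 CPM in Sox2-positive libraries of batch A, and 226 and 1.04 CPM in batch B. Its population difference was larger in batch B, by log2 -4.63 (SE 0.53, edgeR adjusted p 1.33e-06), a test of the difference itself that 4.22% of all genes passed in this direction and 2.82% in the other. Tgfb1 passed in neither batch, and the interleukin genes Il3 and Il9 were at 0 in all 23 libraries.

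Likeness to the proteases was taken as Pearson's r of log2 CPM with the mean log2 CPM of Tpsb2, Cma1, Mcpt4 and Cpa3, over 12732 genes. Across all 10 Sox2-negative libraries, the 10 most similar genes were Camp, BC100530, S100a9, Emcn, Elane, S100a8, F630028O10Rik, Lyz2, Vamp5 and Nr4a1, with r from 0.986 to 0.996. Mcpt2 ranked 12th (r 0.981) and Fcer1g 16th (r 0.979). These libraries share their batch, so the values mostly restate which genes were lower in batch B. Across the 6 batch A Sox2-negative libraries alone, different genes came first, among them Slc30a6, Dop1b, Acadvl, Dync1li1, Trak2, Gm26716, Zfp65, Fam214a and Fam196a, with r from 0.979 to 0.995, and the named genes of the 6 lists ran from -0.867 (Fyn) to 0.815 (Ptgs1), with Mcpt2 at 0.354, Mcpt1 at 0.736, Fcer1g at 0.296, Spi1 at -0.561 and Srgn, which had r 0.942 over all 10 libraries, at -0.808. With 12732 genes ranked over 6 libraries, values of r this high can arise by chance. In these libraries Cma1 ran against Tpsb2 (r -0.55), Mcpt4 (-0.58) and Cpa3 (-0.59), so their mean does not stand for a shared pattern.

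Within those 6 libraries the members did not rise and fall as 1 block. Pearson's r was 0.73 between Tpsb2 and Mcpt4, 0.69 between Tpsb2 and Cpa3 and 0.80 between Cpa3 and Kit, but -0.55 between Tpsb2 and Cma1, -0.79 between Cma1 and Gata2 and 0.30 between Tpsb2 and Tpsab1. With 6 libraries that share a batch these values are descriptions only. Library 3, which held the most Cma1 (366 CPM), held the least Tpsb2, Cpa3 and Gata2.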

How the data were processed

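Smart-seq2 libraries were grouped by the labels into 4 groups, and numbered as the labels number them. The authors deposited an estimated count for each gene in each library, for which FastQC, Trimmomatic, Salmon and mm10 are named, without their roles, per the submitters' processing notes; versions, annotation and the strand setting are not given in the sources used here. Most deposited values are not whole numbers, so a per-gene adjustment is part of them, and they were rounded before testing. Symbols came from GENCODE M21 by Ensembl identifier without version (54094 of 54347 matched, 99.5%). Columns left unused numbered 0.

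CPM used TMM-scaled totals. Differences were tested with edgeR 4.0.16 in R 4.3.3 (filterByExpr with a minimum count of 10, quasi-likelihood F test, two-sided, Benjamini-Hochberg over all genes tested, threshold 0.05), within each batch for the populations and in a model of the 4 group means for batches and the interaction. The SE beside a log2 fold change is the size of that change divided by the square root of its F statistic. It is not a fitted standard error and can be too small where a group is near 0 counts. "At least" folds set a group at 0 to 3 counts per library. Likeness used log2 CPM (prior count 2) of genes with a mean of at least 10 CPM in a group. The fits were tested on simulated data. Genes named outside the members were the 3 highest by mean CPM of each list, with Mcpt1, Mcpt2, Mcpt8, Kitl, the likeness lists and markers. Cyp11a1, Camp, Ngp, Mmp9, Retnlg, Ly6g, Ltf, Dct, Tyr, Sox10, Mlana, Tyrp1, Pmel, Prss34, Itga2, Vav1, Il3 and Il9 were picked after their values were seen. Members and lists were chosen with earlier results of these data known. Alternatives were DESeq2 1.42.0, RLE and total-count scaling, no filter, a replicate block, each library left out, batch B libraries 1 and 2 left out, and transcript length. ATAC-seq was not analysed here. A gene of the likeness lists is not reported here.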

Additional observations from a re-analysis of the deposited data

Results flagged for a closer look

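Each named gene was examined within each group of 4, 6 or 7 libraries, 75 such sets in all, and 5 sets held a library that lay far from the others by Dixon's criterion; chance gives about 1 in 20. Tpsab1 was low in 1 batch B Sox2-negative library, at 5.53 CPM against 11.6 to 11.9 CPM in the other 3. In batch A Sox2-negative libraries, Cma1 was high in library 3 at 366 CPM, Mcpt4 was high in library 4 at 141 CPM, and Ms4a2 was high in library 6 at 13.6 CPM. Cxcl12 was high in 1 batch B Sox2-positive library, at 3.21 CPM.

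The difference between populations in Cxcl12 differed between the batches by log2 -4.63 (SE 0.53, edgeR adjusted p 1.33e-06), taken as batch B minus batch A. The Sox2-positive libraries of batch A averaged 24.1 CPM and those of batch B 1.04 CPM, with the batches not overlapping. The batch B mean lies within the floor of 0.314 to 1.30 CPM. Of 8 mesenchymal markers, 3 passed the same test in this direction.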

How the results depend on the processing

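Library numbers recur across groups in the labels, with no statement that they mark pairs. Deviations of same-numbered libraries from their group means correlated at -0.0212 to 0.0124 over 6 pairs in batch A. In batch B they correlated at 0.00312 to 0.0444 over 4 pairs. Closest to their own number were 1 of 6 in batch A and 0 of 4 in batch B. These values give no sign of pairing but cannot exclude it, since no known pairs show that the check would find it. With the replicate block, the interaction count went from 1210 to 557 genes, and the listed genes called higher in the interaction from 1 to 0; the counts were 5829 and 6668 genes for the populations in batches A and B, and 1423 and 1463 for the batches in Sox2-negative and Sox2-positive cells.

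Without batch B libraries 1 and 2, fewer samples were fitted, and the counts of called genes went from 1924 to 754 for the batches in Sox2-negative cells, from 1785 to 1159 in Sox2-positive cells and from 1210 to 481 for the interaction. The listed genes called lower between batches in Sox2-negative cells went from 13 to 6, those called higher in Sox2-positive cells from 1 to 0, and those higher in the interaction from 1 to 0. Without these libraries Cd63, Csf2rb, Lyn, Inpp5d, Alox5ap and Spi1 lost their call between batches and Lyn between populations in batch B, with the same direction. Leaving out 1 library at a time gave 8 to 14 listed genes lower between batches in Sox2-negative cells, 0 to 1 higher in Sox2-positive cells and 0 to 2 higher in the interaction. DESeq2 called 4 listed genes higher in the interaction, where edgeR called Cyp11a1 alone. The cause of these shifts was not tested. With total-count scaling the median log2 fold change of all genes between batches in Sox2-negative cells moved from -0.00 to -0.15. Of the single-gene values under the alternatives, 620 kept direction and side of the threshold or their value, 24 lost the call and 14 moved by more than the spread. None of the gene values changed direction. Members near the floor of 0.314 to 1.30 CPM, among them Cpa3 and Mcpt4 in batch B, have the least certain folds.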
